A study of Mus musculus with 3 samples.

Results

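The 10 genes described here are *Fos*, *Fosb*, *Fosl1*, *Jun*, *Junb*, *Jund*, *Egr1*, *Atf3*, *Ier2* and *Hspa1a*, taken by symbol from the 33696 features of a single-cell RNA sequencing (scRNA-seq) series of the mouse larynx. All 10 were found, and each was detected in at least 1 library. The mice were Lrig1CreERT2/+; ROSALSL-tdTomato/+, so that after tamoxifen a cell with an active *Lrig1* locus turns on tdTomato, a red fluorescent protein, and tdTomato+ cells were sorted 24 h after recombination. A single condition was sampled in 3 libraries. Each pooled 10 larynges, 5 from males and 5 from females, and the pools are treated as replicates (n = 3). The Cre is driven by the *Lrig1* locus, and the libraries hold cells that expressed *Lrig1* at the time of tamoxifen and their progeny, of many cell types. The same protocol is described for all cells, an enzymatic digestion of the tissue, at room temperature and then on ice, and fluorescence-activated sorting. Handling times of the 3 libraries are not in the labels, so it is not known whether handling was equal. No library was prepared without these steps, so the levels before dissociation are not known.

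Immediate-early genes are transcribed within minutes of a stimulus, from promoters that are already poised and without new protein synthesis. *Fos*, *Fosb* and *Fosl1* encode FOS family proteins, and *Jun*, *Junb* and *Jund* encode JUN family proteins. A FOS and a JUN protein, or 2 JUN proteins, pair through leucine zippers to form the transcription factor AP-1. *Egr1* encodes a zinc finger factor, *Atf3* a stress-induced factor of the ATF/CREB family, *Ier2* a small nuclear protein of the same early response, and *Hspa1a* the inducible HSP70 chaperone. These genes respond to growth factors, wounding and stress, and they are also known to rise during the enzymatic dissociation of tissue, muscle stem cells included.

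Short sequences that factors of this response are known to bind were looked for upstream of the genes, and 1 stretch is shown for each of 5 genes to let a reader see them. The 500 bases before each gene's start were searched on both strands in GRCm39 with GENCODE start sites. The searched sequences were the CArG box, which serum response factor binds, the cAMP response element TGACGTCA, the AP-1 site TGANTCA and the paired unit of a heat shock element (GAA and TTC spaced by 2 bases). A CArG box was found in *Fos* and *Fosb*, against 2.76% of 21769 protein-coding promoters, and TGACGTCA in *Jund* and *Ier2*, against 1.96%. The heat shock unit, found before 12.8% of genes, was present in *Hspa1a*, *Fos*, *Fosl1*, *Jun* and *Ier2*, and the AP-1 site, found before 12.3%, in *Fos*. The matches within a gene did not overlap. *Egr1*, *Junb* and *Atf3* held none of these letters in this window, which says nothing of the factors that bind them. Each stretch below runs 5′ to 3′ on the strand of its gene, with the match in capitals.
Fos, CArG box, chr12:85520310-85520409, plus strand: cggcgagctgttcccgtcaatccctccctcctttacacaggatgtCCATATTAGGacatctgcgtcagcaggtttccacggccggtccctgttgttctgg
Fosb, CArG box, chr7:19044188-19044287, minus strand: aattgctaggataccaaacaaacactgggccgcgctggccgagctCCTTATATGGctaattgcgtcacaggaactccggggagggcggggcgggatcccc
Ier2, cAMP response element, chr8:85389484-85389583, minus strand: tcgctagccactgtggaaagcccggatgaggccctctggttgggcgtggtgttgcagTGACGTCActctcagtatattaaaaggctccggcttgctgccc
Jund, cAMP response element, chr8:71151339-71151438, plus strand: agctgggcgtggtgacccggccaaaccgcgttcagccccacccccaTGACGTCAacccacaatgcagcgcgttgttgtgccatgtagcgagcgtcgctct
Hspa1a, heat shock unit, chr17:35191183-35191282, minus strand: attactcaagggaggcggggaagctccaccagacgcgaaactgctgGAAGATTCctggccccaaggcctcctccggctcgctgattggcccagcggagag
The stretch of *Hspa1a* is identical at 100 of 100 positions to that of its neighbour *Hspa1b*, and 329 of the 500 bases searched are identical in the pair. The genes are known near-copies, so their UMI counts are uncertain as to which of them a read came from. The stretches describe the loci, and no binding was measured here.

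Libraries 1, 2 and 3 held 18068, 10816 and 31646 barcodes with 211727921, 147898790 and 413632222 unique molecular identifiers (UMIs). After limits on genes, UMIs and mitochondrial share and after doublet removal, 44542 cells were kept, with medians of 10428.5, 14000 and 10090 UMIs. Pairs of libraries shared 46 to 165 barcode sequences, under 1% of each library. Cells were placed in 12 classes by UMI minimums on marker genes that include none of the 10 genes. A class held 19426 of the kept cells (43.6%), and 24925 passed no gate. The 10 classes with at least 20 cells in every library were compared. The thinnest sums were those of endothelial cells (462, 25 and 40 cells) and macrophages (105, 33 and 31 cells). Library 2 stands apart from the others for several of the genes, so many results are also given without it. It was singled out on the levels of the members, so p-values from fits without it are descriptive. Levels are UMIs of a gene divided by all UMIs of its class in a library, on the CPM scale, and are not corrected for transcript length.

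Muscle satellite cells, the stem cells of skeletal muscle, carried the highest mean level of 8 of the 10 genes, all but *Fosl1*, highest in suprabasal squamous cells, and *Atf3*, highest in macrophages (169 CPM, against 135 CPM in satellite cells). Over libraries 1 and 3 alone they led for 5 genes, *Fos*, *Fosb*, *Jun*, *Jund* and *Hspa1a*. The order for *Hspa1a* may depend on how reads were split with its near-copy, which was not tested. Over libraries 1 and 3 *Hspa1a* was at a mean of 72.4 CPM in satellite cells against 70.3 CPM in macrophages, whereas *Hspa1b* was highest in suprabasal squamous cells (217 CPM) and 5th in satellite cells (97.8 CPM). *Fos* stood at 283, 5649.9 and 353 CPM in the satellite cells of libraries 1, 2 and 3, from 1459, 30654 and 2096 UMIs in 699, 624 and 996 cells. The exact 95% Poisson interval of library 2, which covers counting error only, was 5587 to 5713 CPM, far above both others. *Fosb* stood at 58.5, 945 and 82.8 CPM. Libraries 1 and 3 lay close together for both genes, and library 2 lay 16.01 and 11.4 times above the higher of them.

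Library 2 was also the highest library for the other members in satellite cells. *Egr1* was at 158, 2311 and 198 CPM, and *Atf3* at 12.04, 379 and 14.8 CPM. *Ier2* was at 138, 1363 and 150.2 CPM, *Jun* at 443, 2933 and 489 CPM and *Junb* at 348, 2838 and 281 CPM. In each of these genes libraries 1 and 3 differed by far less than either did from library 2. *Jund*, whose product is the most steadily expressed JUN protein in many tissues, was at 1037, 2693 and 1031 CPM, and *Hspa1a* at 54.2, 271 and 90.6 CPM, so both had smaller ratios of library 2 to the higher other library, 2.596 and 2.987. *Fosl1*, which encodes FRA-1, was close to the floor, with 0, 12 and 5 UMIs.

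**Figure D1:**
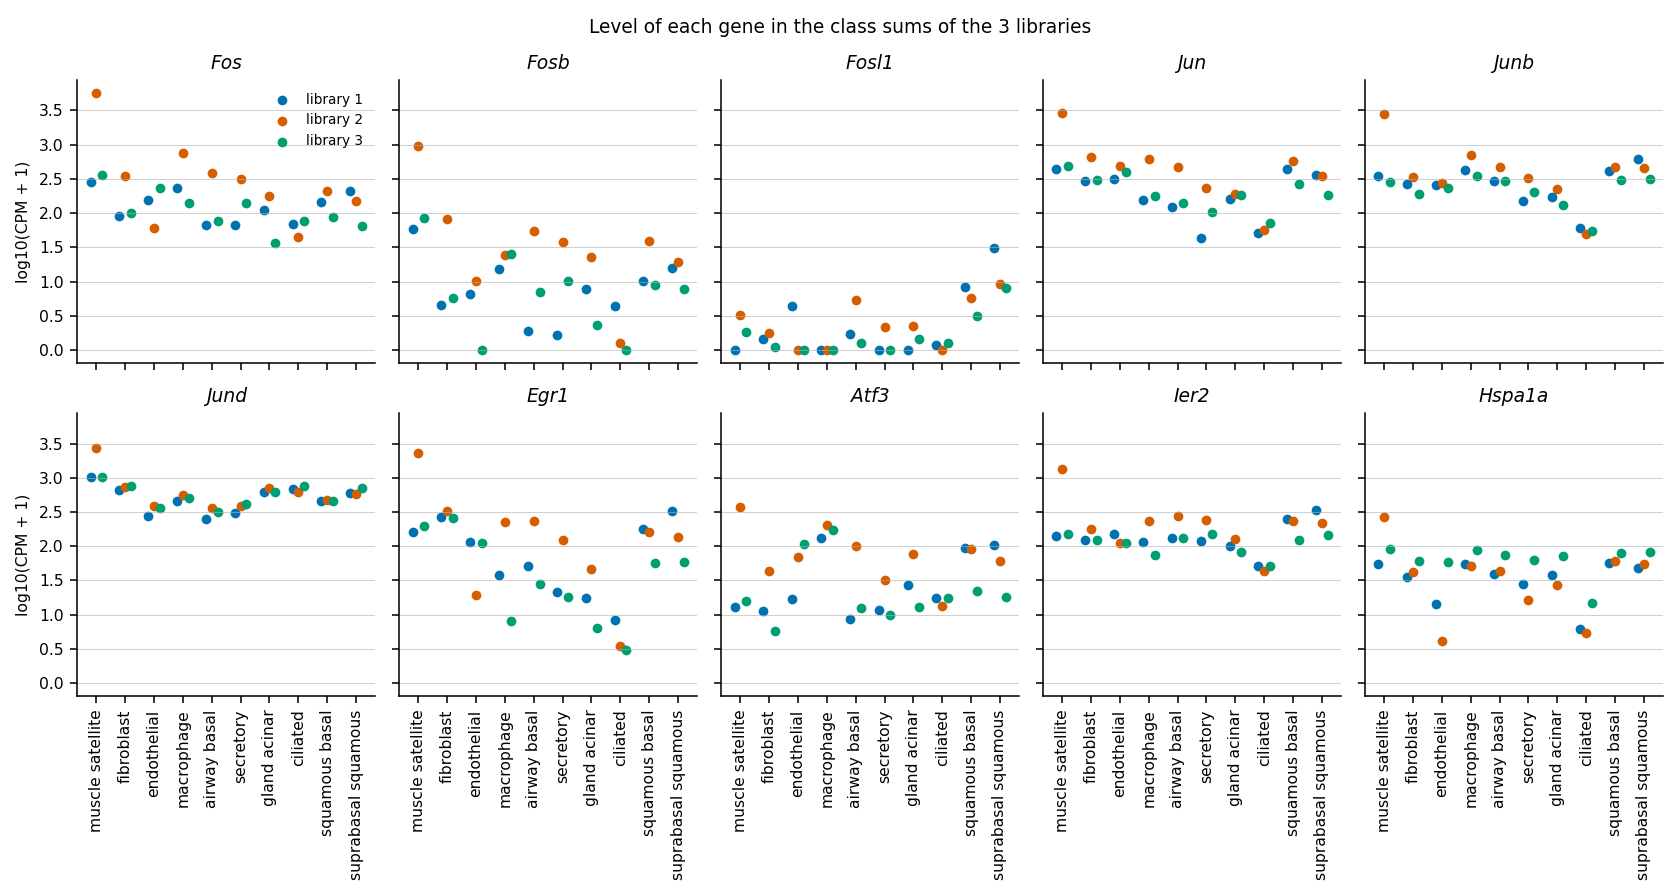
Levels of the 10 genes as log10(CPM + 1) in the UMI sums of 10 cell classes, 1 point for each of 3 libraries and no error bars. Library 2 lies far above libraries 1 and 3 in muscle satellite cells for 9 genes, whereas *Jund* points of the 3 libraries nearly coincide in the other classes and *Fosl1* is highest in suprabasal squamous cells.

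Among the 9401 genes with a mean of at least 10 CPM in satellite cells, 1.12% were at least 2-fold higher in library 2 than in both other libraries. All 9 members that reached 10 CPM were. These 9 also reached 10 CPM over libraries 1 and 3 alone, a filter that library 2 does not enter, under which 0.863% of genes were 2-fold higher in library 2. By this ratio *Atf3* ranked first at 25.6, *Fos* 6th, *Egr1* 8th, *Fosb* 9th, *Ier2* 11th, *Junb* 14th, *Jun* 19th, *Hspa1a* 43rd and *Jund* 57th. Of the first 20 genes, 7 were members and 9 belonged to a list of 64 further early response and heat shock genes. These 9 include *Nr4a3*, *Nr4a1* and *Nr4a2*, orphan nuclear receptors, and *Egr2*, at 1.94, 41.1 and 2.53 CPM, and the feedback genes *Zfp36*, an mRNA decay factor, and *Socs3*, an inhibitor of cytokine signalling. They were named after their values were seen. *Nr4a3*, *Egr2*, *Nr4a2* and the growth arrest gene *Gadd45g* passed the filter only through library 2, being under 10 CPM in both others.

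The further list is given by role under the filter on libraries 1 and 3, where 18 of its 48 measured genes were at least 2-fold above both libraries in satellite cells of library 2. Of the other immediate-early transcription factors 4 of 8 were, of the feedback inhibitors and decay factors 7 of 11, and of the other early genes 5 of 9. Of the AP-1 partners the count was 1 of 6, and of the heat shock genes 1 of 14.

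Elsewhere library 2 was higher for some genes in some classes. In airway basal cells, the progenitor layer of the respiratory epithelium, *Fos* was at 65.9, 382 and 76.7 CPM and *Egr1* at 50.2, 233 and 27.1 CPM. *Atf3* was at 7.65, 100.4 and 11.5 CPM there, and *Jun* at 124, 471 and 141 CPM. At least 2-fold above both libraries were 6 of 9 members, beside 0.348% of all genes at 10 CPM in the class. *Fosb* and *Atf3* reached 10 CPM there only through library 2, and with the filter on libraries 1 and 3 the count was 4 of 7, beside 0.221%. In fibroblasts 4 of 9 were, beside 0.12%, and without *Fosb* and *Atf3*, which again passed only through library 2, 2 of 7, beside 0.0498%. The fibroblast count was 3 of 8 with gate minimums halved and 1 of 8 with them doubled. *Fosb* led in fibroblasts with 3.497, 81.6 and 4.76 CPM, followed by *Atf3*, *Fos* and *Jun*, while *Egr1* was at 263, 326 and 254 CPM and *Jund* at 652, 734 and 761 CPM, with libraries that lay close to each other.

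In squamous basal cells, the *Krt14*-rich base of the stratified epithelium, 1 of 9 members was at least 2-fold higher in library 2 than in both others, beside 0.0843% of genes. It was *Fosb*, at 9.27, 37.9 and 7.80 CPM, which passed the filter only through library 2. With the filter on libraries 1 and 3 the count was 0 of 8, beside 0.042%. In 3 other genes libraries 1 and 2 lay close together, above library 3. *Egr1* was at 175, 162 and 56.2 CPM, *Atf3* at 94.4, 89.1 and 21.3 CPM and *Ier2* at 246, 233 and 124 CPM. Suprabasal squamous cells, the differentiating layers above, had library 1 as the highest library for *Fos* (211, 147 and 63.6 CPM), *Egr1* (324, 135 and 57.3 CPM) and *Fosl1*. Library 1 was also highest there for *Jun* (365 CPM), *Junb* (610 CPM), *Atf3* (105 CPM) and *Ier2* (334 CPM). *Fosb* was highest in library 2, and *Jund* and *Hspa1a* in library 3.

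Ciliated cells showed little of this. *Fos* was at 68.5, 43.0 and 76.6 CPM, *Jun* at 49.6, 54.95 and 71.7 CPM and *Junb* at 59.4, 48.0 and 52.8 CPM, so library 2 was not the highest library for *Fos* or *Junb* there. *Fosb* had 19, 1 and 0 UMIs in the ciliated sums, in the same library 2 whose satellite cells carried 945 CPM. In endothelial cells *Fos* was at 153, 59.0 and 228 CPM, with library 2 lowest, although its sum rests on 25 cells.

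**Figure D2:**
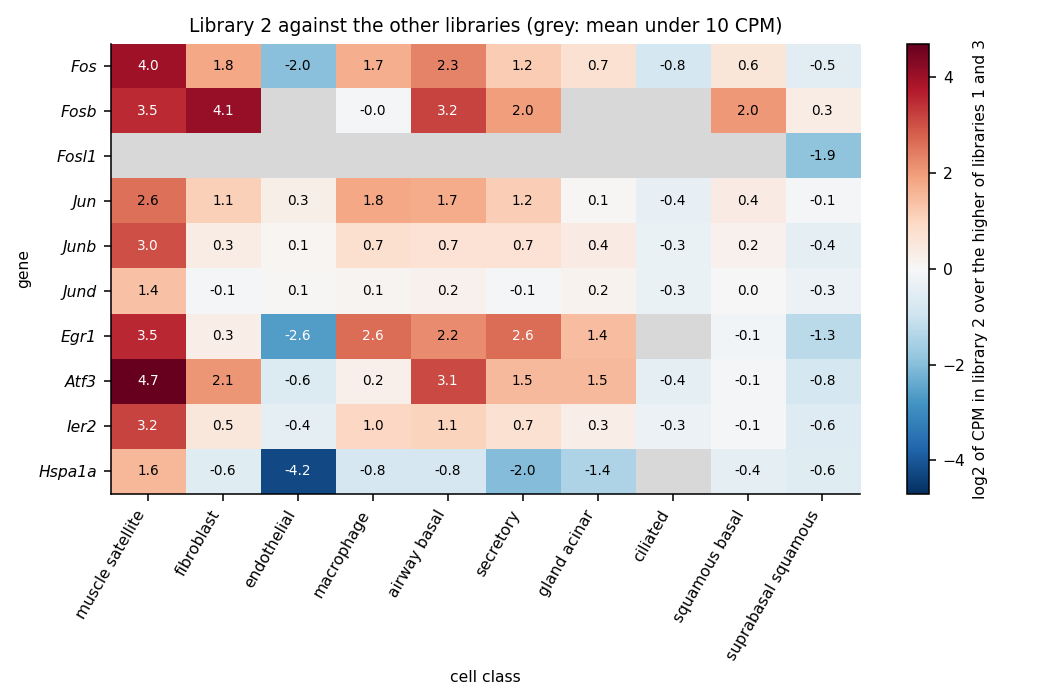
The log2 ratio of CPM in library 2 to the higher of libraries 1 and 3 for each gene (rows) and cell class (columns), in red where library 2 was higher and blue where it was lower. Grey cells had a mean under 10 CPM. The muscle satellite column is red for all 9 measured genes, the measured genes of the ciliated column are pale blue, and the *Hspa1a* row is blue outside muscle satellite cells except in ciliated cells, where it is grey.

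A different library was highest for the chaperone gene. Outside satellite cells, *Hspa1a* was highest in library 3 in each of the other 9 classes, for example at 55.4, 60.01 and 79.5 CPM in squamous basal cells and at 38.1, 42.4 and 73.1 CPM in airway basal cells. Its near-copy *Hspa1b* was at 120, 98.2 and 161 CPM in squamous basal cells and at 77.0, 61.8 and 125 CPM in airway basal cells, again highest in library 3. In satellite cells *Hspa1b* was at 69.0, 205 and 127 CPM.

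Taking any order of the libraries, the highest was at least 2-fold above the lowest for 5 of 9 members at 10 CPM in squamous basal cells, 6 of 9 in airway basal, 6 of 10 in suprabasal squamous, 8 of 9 in secretory, 4 of 8 in gland acinar, 0 of 6 in ciliated, 4 of 9 in fibroblast and 9 of 9 in muscle satellite cells. Over all genes at 10 CPM of the same classes the shares were 2.22%, 2.37%, 3.74%, 5.22%, 5.41%, 3.16%, 3.44% and 7.59%. The share of members past 2-fold was above that of all genes in each of these classes except ciliated cells, and was not tested. With the filter on libraries 1 and 3 the counts were 4 of 8 in squamous basal, 4 of 7 in airway basal, 6 of 7 in secretory and 2 of 7 in fibroblast cells and did not change in the other classes. In endothelial cells and macrophages, 4 of 8 and 5 of 9 members did, beside 26.8% and 34.9% of all genes in these thin sums. *Jund* stayed within 1.43-fold between libraries in every class but satellite cells, and *Fosb* reached a ratio of 59.6 in airway basal cells (9, 362 and 146 UMIs). Library differences were described and not tested, since the libraries are replicates of 1 condition.

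Counted by cells, the satellite response of library 2 was broad. With each cell thinned to 5000 UMIs, *Fos* was detected in 45.4%, 73.9% and 28.9% of satellite cells (Wilson 95% intervals 41.2 to 49.6%, 70.1 to 77.4% and 25.5 to 32.6%). This left out 170, 64 and 373 shallower cells. Unthinned, the shares were 46.9%, 74.5% and 30.4%. *Fosb* was detected in 17.6%, 52.5% and 16.9% of the thinned satellite cells, *Egr1* in 29.1%, 75.9% and 26.3% and *Atf3* in 3.97%, 32.5% and 4.65%. *Jund* was near saturation in each library, at 92.2%, 96.4% and 91.8%.

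Cells with at least 6 of the 10 genes made up 17.0%, 61.8% and 16.1% of the thinned satellite cells. In airway basal cells they made up 2.81%, 14.6% and 2.80%, and in fibroblasts 5.01%, 8.65% and 4.69%. Ciliated cells reached 0.683%, 0% and 0.386%, where 0 of 180 cells in library 2 has a Wilson upper bound of 2.09%. *Fos* itself was detected in 18.1%, 15.0% and 24.7% of thinned ciliated cells, at unthinned medians of 16069, 17040 and 10025 UMIs, against 7372, 8616 and 5720.5 UMIs in satellite cells. No class is known to lack *Fos*, so no share of background cells could be given.

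**Figure D3:**
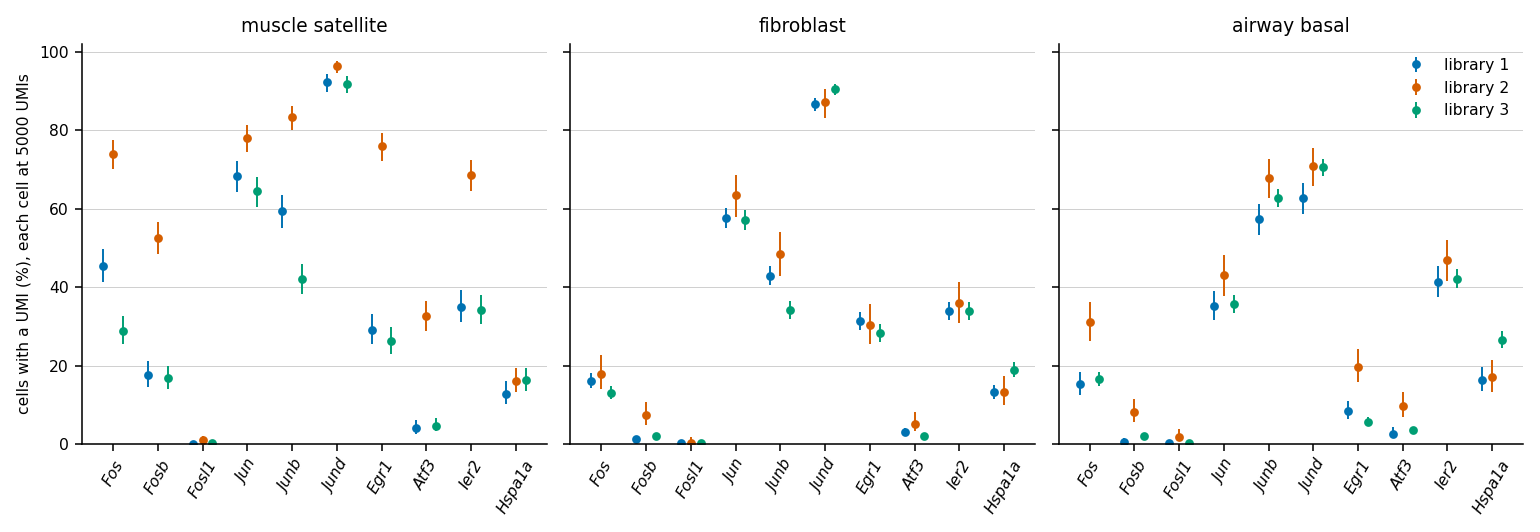
Percent of cells with at least 1 UMI of each gene, each cell thinned to 5000 UMIs, in muscle satellite, fibroblast and airway basal cells. Points are libraries and bars are Wilson 95% intervals. In muscle satellite cells library 2 lies above the others for *Fos* (73.9%), *Fosb* (52.5%) and *Egr1* (75.9%), while in fibroblasts the 3 libraries have *Fos* shares of 13.1% to 17.9%.

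In fibroblasts and airway basal cells, library 2 differed from the others in the upper tail of cells more than in the median. The 10 genes summed to a median of 18.5, 119 and 15.9 UMIs per 10000 UMIs in satellite cells of libraries 1, 2 and 3, and 53.0% of those of library 2 exceeded 100 per 10000, against 1.14% and 4.22% in the others. In fibroblasts the medians were 12.9, 12.6 and 12.9, nearly the same in each library, while 0.347%, 3.94% and 0.476% of cells exceeded 100. In airway basal cells the medians were 6.89, 9.14 and 8.36, and 0.164%, 4.97% and 0.115% of cells exceeded 100. The 10% of fibroblasts with the most *Fos* UMIs held 84.9%, 95.6% and 91.4% of the *Fos* UMIs of libraries 1, 2 and 3, so *Fos* was concentrated in few fibroblasts in each library. The same 10% of satellite cells held 61.1%, 41.7% and 79.5%.

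**Figure D4:**
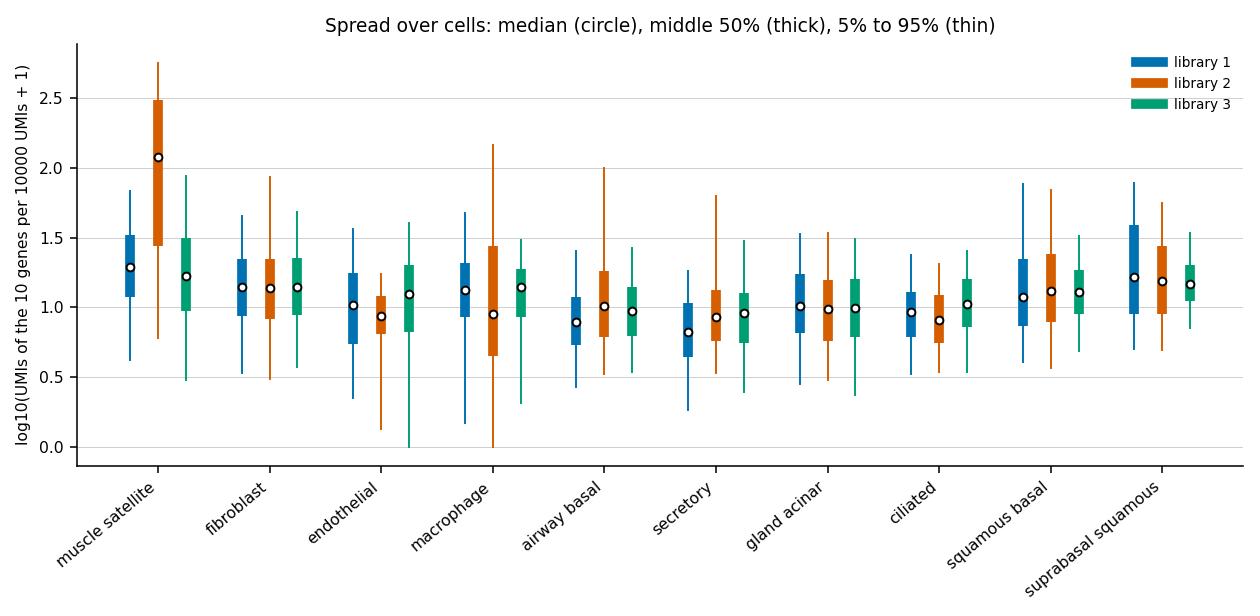
Summed UMIs of the 10 genes per 10000 UMIs of a cell, as log10(value + 1), by class and library. Circles are medians, thick bars the middle 50% of cells and thin bars the 5% to 95% range. The median of muscle satellite cells in library 2 is 119, and fibroblasts have nearly equal medians in the 3 libraries with a longer upper range in library 2.

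Detection of some of the other genes was compared between satellite cells with and without a *Fos* UMI. In library 2, thinned satellite cells with a *Fos* UMI had *Egr1* in 92.3%, *Fosb* in 68.6% and *Atf3* in 43.2% of cells, and those without had them in 29.5%, 6.85% and 2.05%. In library 1 the shares for *Egr1* were 44.2% with and 16.6% without *Fos*, those for *Fosb* 28.8% and 8.30%, and those for *Atf3* 5.42% and 2.77%. In library 3 they were 62.2% and 11.7% for *Egr1*, 48.3% and 4.06% for *Fosb* and 11.1% and 2.03% for *Atf3*. In libraries 1 and 3 most cells with *Fos* thus had no *Fosb* UMI, and most had no *Atf3* UMI, at this depth. Cells with neither were not counted. *Fosl1* was found in 0 of 240 and 0 of 180 cells with *Fos* there. Cells of a library are not replicates, and these shares are descriptions.

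The satellite cells of library 2 could be split further without losing the difference. Cells with a UMI of *Myod1* or *Myog*, which mark myoblasts leaving quiescence, had *Fos* at 226, 5614 and 412 CPM, and cells without had 301, 5663 and 329 CPM. Satellite cells with an *Lrig1* UMI had *Fos* at 259, 5630 and 418 CPM, and those without had 305, 5672 and 313 CPM. These splits were chosen after the levels were seen.

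Depth and mitochondrial share were also compared. *Fos* of library 2 stood at 3770 CPM in satellite cells under 5000 UMIs, 5248 CPM between 5000 and 10000 and 6311 CPM above, while libraries 1 and 3 stayed between 199.7 and 398 CPM in these ranges. The median mitochondrial share of satellite cells was 2.51%, 1.96% and 2.35%. Within cells of at most 2% mitochondrial UMIs *Fos* was at 311, 6937 and 535 CPM, and within those over 4% it was at 222, 3242 and 209 CPM. Library 2 was thus far higher at each depth and mitochondrial range. The 6 satellite markers summed to 3450, 3078 and 4244 CPM in the 3 libraries, which is no independent check of the label, since the gate used markers of this list. Of other cell types, the 6 fibroblast markers summed to 2310, 2986 and 920 CPM in satellite cells, the 6 macrophage markers to 4.08, 2.95 and 1.68 CPM and the 4 pan-epithelial markers to 37.1, 16.04 and 45.5 CPM, and the part of the fibroblast markers in the result was not tested.

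Levels in each class were then compared with edgeR's quasi-likelihood test on the 30 sums of 10 classes and 3 libraries, with Benjamini-Hochberg adjustment over 16544 genes. Satellite cells against fibroblasts gave 8 of 10 members higher and none lower, beside 17.5% of all genes higher and 25.0% lower. *Fos* differed by 3.59 on the log2 scale (SE 0.953, adjusted p = 0.0031), *Fosb* by 3.86 (SE 1.19, adjusted p = 0.00999), *Junb* by 2.13 (SE 0.54, adjusted p = 0.00208) and *Jund* by 1.13 (SE 0.243, adjusted p = 4.18e-04). *Jun*, *Atf3*, *Ier2* and *Hspa1a* were also higher, by 1.60 to 3.04. Of these 8 members, all but *Jund* had library ranges in CPM that overlapped between satellite cells and fibroblasts. Such overlap was not counted over all genes. *Egr1* (1.67, adjusted p = 0.151) and *Fosl1* (1.48, adjusted p = 0.349) did not pass. DESeq2 called 7 of the 8 and not *Jun* (1.59, adjusted p = 0.0632).

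With only these 2 classes in the fit, 3 members passed, *Fos*, *Jund* and *Hspa1a* (21.6% of genes higher), and *Fosb* did not (3.79, adjusted p = 0.0786). Without library 2, in the fit of 10 classes, 3 members passed beside 12.5% of genes higher, *Fos* at 1.65 (adjusted p = 0.0153), *Fosb* at 3.99 (adjusted p = 3.73e-04) and *Jund* at 0.45 (adjusted p = 0.0366). *Ier2* then differed by 0.15 and *Junb* by 0.36, neither past the threshold, and *Egr1* turned to -0.65 (adjusted p = 0.474). *Fosb* in libraries 1 and 3 was at 58.5 and 82.8 CPM against 3.497 and 4.76 CPM in fibroblasts. Of the 64 further genes, 25 were higher and 7 lower in satellite cells, and 13 were higher and 14 lower without library 2. Beside 42.5% and 34.0% of all genes, 50% and 42.2% of the list were called. With all libraries the largest changes were in *Hspb8*, a small heat shock protein (-3.45), *Batf*, an AP-1 partner of lymphoid cells (-2.88), and *Gadd45g* (-2.83). Without library 2 the largest were in *Gadd45g* (-6.04), *Nr4a3* (-4.13) and *Nr4a1* (-3.63).

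**Figure D5:**
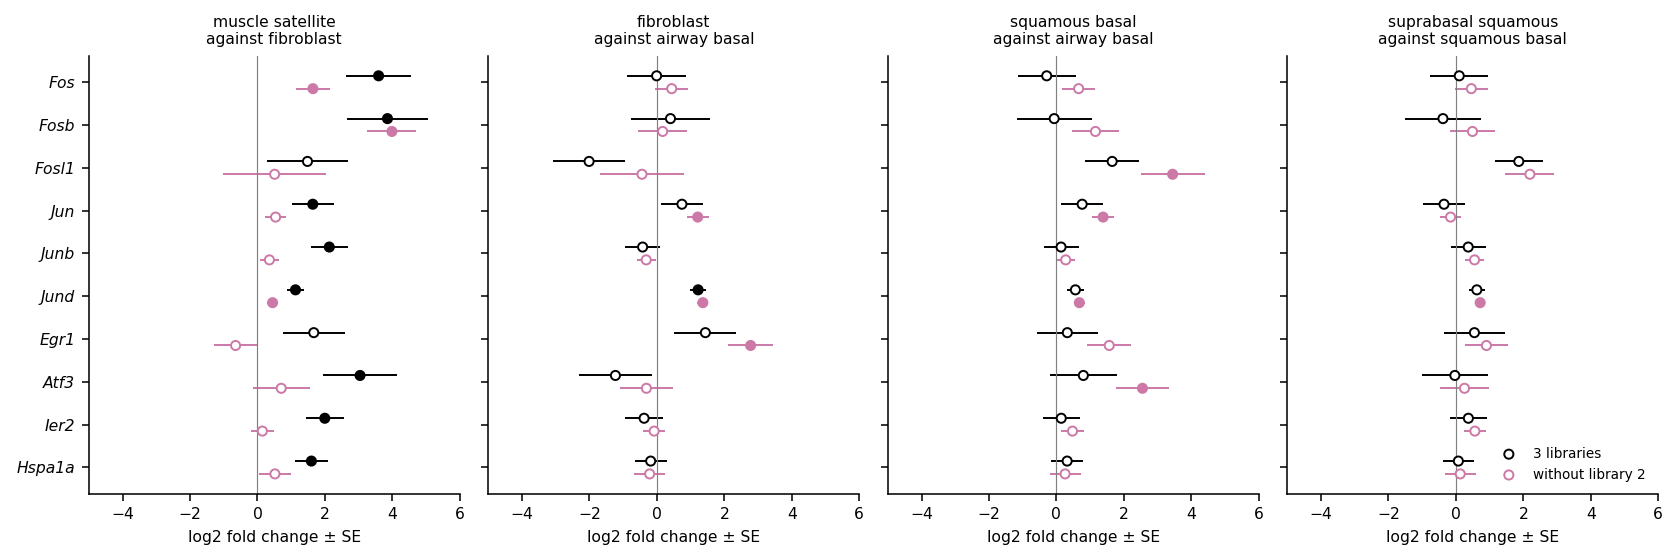
Log2 fold changes of the 10 genes in 4 comparisons of cell classes, from all 3 libraries (black) and without library 2 (pink). Bars are SE, derived from the F statistic of the test. Filled points passed an adjusted p of 0.05 in edgeR's quasi-likelihood test. Of the 8 members called in muscle satellite cells against fibroblasts, 3 passed without library 2, and *Jund* of fibroblasts against airway basal cells passed with and without it.

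*Jund* levels were set apart by class more than by library outside satellite cells. It stood at 250.2, 357 and 313 CPM in airway basal cells, 452, 466 and 463 CPM in squamous basal cells, 603, 582 and 712 CPM in suprabasal squamous cells and 686, 619 and 759 CPM in ciliated cells. Fibroblasts against airway basal cells gave 1 member higher, *Jund* at 1.22 (SE 0.244, adjusted p = 1.11e-04), beside 29.2% of all genes higher and 25.4% lower. With the library as a block *Egr1* also passed, at 2.14 (adjusted p = 0.00634; 32.2% of genes higher). Its 3 libraries were at 254 to 326 CPM in fibroblasts and at 27.1 to 233 CPM in airway basal cells. Without library 2, *Jun* passed as well, at 1.21 (adjusted p = 0.00535), beside *Egr1* and *Jund*, with 27.0% of genes higher. Of the further list 15 genes were higher in fibroblasts and 14 lower, or 9 and 10 without library 1 and 20 and 13 without library 2. Beside 54.5% of all genes as fitted, 45.3% of the list were called. With all libraries *Nr4a3* (6.04) and *Klf2*, a flow- and quiescence-related factor (4.80), were highest and *Hspb1*, a small heat shock protein (-3.78), lowest.

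Endothelial cells against fibroblasts gave 1 member lower, again *Jund*, at -1.12 (SE 0.253, adjusted p = 6.93e-04), beside 22.7% of all genes lower and 16.6% higher. Its endothelial levels were 275, 382 and 364 CPM. *Egr1* was lower by 1.64 on the log2 scale without passing (adjusted p = 0.219). With only these 2 classes in the fit *Egr1* passed, at -1.65 (adjusted p = 0.00388), beside 3289 of 13225 genes lower. Without library 2, in the fit of all classes, *Jund* was again the only member called, at -1.22 (adjusted p = 1.71e-05), beside 34.8% of all genes in either direction. Of the further list 16 genes were higher and 9 lower, or 12 and 4 without library 1 and 22 and 9 without library 2. Beside 39.2% of all genes as fitted, 39.1% of the list were called. With all libraries the largest changes were in *Dusp2*, a MAP kinase phosphatase (6.45), *Nr4a3* (-4.52) and *Hspb1* (3.83).

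Squamous basal against airway basal cells gave no member past the threshold in edgeR's test, beside 7.09% of genes higher and 7.62% lower. At an unadjusted p under 0.05 there was 1 member, *Jund*, and DESeq2 called 0. The airway basal levels of library 2 enter this comparison. Without that library 4 members were higher in squamous basal cells, beside 5.23% of genes, *Fosl1* (3.45, adjusted p = 0.0309), *Jun* (1.38, adjusted p = 0.0105), *Jund* (0.68, adjusted p = 0.00932) and *Atf3* (2.55, adjusted p = 0.0478). Library 2 was singled out on the levels of these genes, so these p-values are descriptive. No member passed without library 1 or without library 3. With the library as a block *Fosl1* passed with all 3 libraries, at 1.75 (adjusted p = 0.0443; 10.1% of genes higher). That call was lost with the block when library 1 or library 3 was left out. Of the further list 2 genes were higher and 3 lower, against 0 and 1 without library 1, 5 and 2 without library 2, 0 and 3 without library 3, 0 and 2 with gate minimums halved, 1 and 2 without doublet removal, 0 and 3 by DESeq2, 5 and 6 with only these 2 classes in the fit and 6 and 6 with the library as a block. With the block and 1 library left out, 2 to 14 were called. Beside 14.7% of all genes as fitted and 20.8% with the block, 7.81% and 18.8% of the list were called. With all libraries the largest changes were in *Dusp4* (-2.90), *Dusp5* (2.06), both MAP kinase phosphatases, and the growth factor target *Myc* (1.08).

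*Fosl1* had its highest means in the 2 squamous classes. It stood at 29.9, 8.06 and 7.13 CPM in suprabasal squamous cells and at 7.23, 4.73 and 2.12 CPM in squamous basal cells, from 40 to 255 UMIs in each sum. In airway basal cells it had 7, 29 and 6 UMIs, and in macrophages 0 UMIs in each library, where a count of 0 allows up to 1.93, 10.2 and 10.5 CPM. Within each library the suprabasal level was the higher of the squamous classes. The suprabasal against squamous basal comparison called no member (10.7% of genes higher, 10.5% lower), with 2 members at an unadjusted p under 0.05 in edgeR's test. DESeq2 called 0 members. *Fosl1* differed by 1.87 (SE 0.704, adjusted p = 0.0609) and *Jund* by 0.62 (adjusted p = 0.0669). With the library as a block both passed, beside 16.3% of genes higher, *Fosl1* at 1.90 (adjusted p = 0.00601) and *Jund* at 0.63 (adjusted p = 0.0253).

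Of the further list, 12 genes were higher and 2 lower in suprabasal squamous cells, but 1 and 0 without library 1, 5 and 3 without library 3, 2 and 0 with gates halved, 5 and 2 at a mitochondrial limit of 5% and 20 and 4 with the library as a block. With the block and 1 library left out, 8 to 27 were called. Without library 2, 13 of the list were higher and 1 lower. Over all genes the calls fell from 3500 to 1112 without library 1, 2167 without library 3 and 1735 with gates halved. Beside 21.2% of all genes as fitted, 31.4% with the block and 15.5% without library 2, 21.9%, 37.5% and 21.9% of the list were called. Among the 12 higher with all libraries and no block were *Arc*, a synaptic early gene (4.16), *Dusp5* (2.06) and *Hbegf*, an EGF family ligand (1.63). With DESeq2's size factors the share of higher calls over all genes in this comparison went from 50.6% to 40.3%, and the median of all genes from -0.05 to -0.12 on the log2 scale. *Fosl1* and *Hbegf* were also found together: squamous basal cells with an *Hbegf* UMI had *Fosl1* at 25.9, 10.5 and 6.44 CPM, and those without had 1.0003, 2.01 and 0.88 CPM. *Egr1* was at 399, 344 and 134 CPM with and 99.96, 75.8 and 33.9 CPM without.

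Secretory against airway basal cells gave no member past the threshold, with 7.44% of genes higher and 5.98% lower. No member had an unadjusted p under 0.05 in edgeR's test, and DESeq2 called 0. Library 2 was the highest library for *Fos* in both classes, at 65.3, 316 and 139 CPM in secretory cells. Without it *Jund* was higher in secretory cells by 0.54 (adjusted p = 0.0428), as were 5.27% of genes. Of the further list 1 gene was higher and 5 lower, against 0 and 0 without library 1, 3 and 6 without library 2, 1 and 9 with gate minimums doubled, 2 and 11 with only these 2 classes in the fit and 1 and 10 with the library as a block. With the block and 1 library left out, 1 to 16 were called. Beside 13.4% of all genes as fitted and 19.1% with the block, 9.38% and 17.2% of the list were called. With all libraries they were led by *Dusp2* (-3.10), *Hspb1* (-0.95) and *Hsp90aa1*, a cytosolic chaperone (-0.69), and without library 2 by *Nr4a1* (1.85), *Maff* (-1.25) and *Hspb1* (-1.03).

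The main contrast of the study, cells with and without an *Lrig1* UMI, was tested on 2 sums a library over all kept cells. *Lrig1* itself was left out of the test. No member passed in edgeR's test (0.0% of 19801 genes higher, 0.00505% lower), none had an unadjusted p under 0.05, and DESeq2 called 0 members, beside 4.94% of genes in either direction. With the library as a block, 3 members were lower in *Lrig1*+ cells, *Egr1* by a log2 difference of -0.39 (adjusted p = 0.00986), *Jund* of -0.24 (adjusted p = 0.0126) and *Fosb* of -0.23 (adjusted p = 0.0459). In that fit 13.8% of all genes were lower and 4917 were called in either direction. Without library 2 the block kept only *Egr1*, beside 749 genes called, and without library 3 *Egr1* and *Jund*, beside 2136. The 2 sums of a library hold different mixtures of classes. They also differ in depth. Over all kept cells, the *Lrig1*+ sums held 84616409, 74429315 and 177557224 UMIs from 5300, 4088 and 11828 cells. The *Lrig1*- sums held 71251421, 35177444 and 109996359 UMIs from 7922, 3113 and 12291 cells. Within 1 class, squamous basal cells with an *Lrig1* UMI had medians of 17523, 20418 and 16496.5 UMIs, against 13796, 16588 and 11709 without. The part of depth in these differences was not tested. Within 1 class with the block, 1 member was lower in squamous basal cells, *Jund* at -0.18 (adjusted p = 0.0449), beside 2.81% of genes lower, and none in airway basal cells or fibroblasts. In those 2 classes only 13 and 28 of all genes were called in either direction, against 752 in squamous basal cells. *Fos* in fibroblasts with an *Lrig1* UMI was at 111, 643 and 105 CPM and in those without at 78.6, 191 and 96.2 CPM, so the separation was widest in library 2.

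Over the 30 sums, the genes most like *Fos* in log2(CPM + 1) among 10796 candidates, members left out, were *Ccnl1*, a cyclin L gene (Pearson r 0.81), and *Socs3* (0.77). Those most like *Fosl1* were *Serbp1*, *Chit1* and *Bcl11b* (0.81, 0.80 and 0.77), and those most like *Hspa1a* were *Rnd3* and *Hspa1b* (0.86 and 0.84). Among members, *Ier2* and *Junb* were closest (0.91), *Fos* and *Fosb* had 0.82, and *Jund* had at most 0.53 with any other. The sums share libraries and depth, and the 3 satellite sums weigh on these values.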

How the data were processed

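The authors ran 10x Genomics 3′ libraries through Cell Ranger 8.0.1 with GRCm39, per the submitters' processing notes, and deposited UMI counts per gene and barcode without normalization. Barcodes were kept between 500 and 8000 genes, between 1000 and 40000 UMIs and up to 8% mitochondrial UMIs. Doublets, scored over 30 neighbours on 30 components, were removed at 0.4% per 1000 barcodes. Library totals ranged from 147898790 to 413632222 UMIs. Class minimums were chosen on the marker distributions after the counts were opened. Members and gene lists were chosen with earlier results of these data known.

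UMIs were summed per class and library. The test was edgeR 4.0.16 (R 4.3.3; TMM, filterByExpr, quasi-likelihood, 2-sided, adjusted p threshold 0.05) with no covariate, checked on simulated counts. Those counts were drawn independently, with a fixed dispersion and no library effect. The check therefore cannot cover pairing or a library that stands apart. The SE given with edgeR's values was derived, as the absolute log2 fold change over the square root of the test's F statistic. Alternatives were DESeq2 1.42.0, its size factors, no low-count filter, only the 2 classes compared, no doublet removal, a mitochondrial limit of 5%, gates halved or doubled, a library block, and each library left out. Each pool gave both sums of a pair, and same-library deviations from class means correlated by 0.140 to 0.727, or 0.060 to 0.097 for endothelial cells and fibroblasts. Named were all members, up to 3 called genes of the further list per comparison with the largest change, and, of the 3 genes most like each of *Fos*, *Fosl1* and *Hspa1a*, those reported here; some items are not reported here. Animals within a pool cannot be told apart, so no p-value covers the spread between animals. The class fit without a block treated 30 sums from 3 pools as independent, with 20 residual degrees of freedom. Its estimate of the spread was shared by all classes, and it left out the pairing by pool. Intervals and floors (3 counts) cover counting error only.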

Additional observations from a re-analysis of the deposited data

Results flagged for a closer look

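*Fos* was also measured in barcodes that no comparison used and in cells that no comparison of classes used. Among satellite barcodes over 8% mitochondrial UMIs, *Fos* was at 171 CPM in library 1 (27 barcodes), 2785 CPM in library 2 (8 barcodes) and 1795 CPM in library 3 (18 barcodes). Library 3 was thus higher in these barcodes than in its kept satellite cells, at 353 CPM. Cells that passed no gate had *Fos* at 105, 287 and 71.98 CPM in libraries 1, 2 and 3, with 7243, 3963 and 13719 cells. These values were singled out because they lie outside the class comparisons, although the cells that passed no gate entered the *Lrig1* comparison, and no cause was tested.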

How the results depend on the processing

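No member called as fitted changed direction in its comparison under the alternatives run. The direction of other called genes was not checked. Of the 10 members, the number called in squamous basal against airway basal cells was 0, and 1 with the replicate block, with only the 2 classes fitted or with gates doubled. Over all genes 2433 were called there as fitted, and 3433, 2801 and 2381 in these settings. In suprabasal against squamous basal cells the number of members was 0, 2 with the block or doubled gates, and 1 without the filter or with only 2 classes. Over all genes 3500 were called as fitted, 5203 and 4189 with the block and doubled gates, and 3116 and 3739 in the latter settings. Members called in fibroblasts against airway basal cells went from 1 to 2 with the block or halved gates, and all genes called from 9022 to 10079 and 8749. Members called in satellite cells against fibroblasts went from 8 to 3 with only 2 classes, and to 7 with DESeq2, where *Jun* was lost. Over all genes 7029, 6615 and 7070 were called in these fits. Members called in endothelial cells against fibroblasts went from 1 to 2 with only 2 classes or with gates halved or doubled. Over all genes 6492 were called as fitted, and 5648, 6351 and 6443 in these settings. For *Lrig1*+ against *Lrig1*- cells the count of members went from 0 to 3 with the block and 1 within squamous basal cells with the block. Over all genes 1, 4917 and 752 were called in these fits. Leaving out 1 library, with or without the block, gave member counts of 0 to 5, 0 to 3 and 0 to 1 (secretory against airway basal), 1 to 3, 3 to 8, 1 to 4 and 0 to 3 in the same order. Without the block the ranges were 0 to 4, 0 to 1, 0 to 1, 1 to 3 and 3 to 7 for the first 5. Without library 2 the count was 4, 1, 1, 3 and 3 in the first 5, and without library 1 it was 5 in satellite cells. Over all genes the shares called in either direction without library 2 were 9.95%, 15.5%, 9.24%, 48.2% and 34.0% in the first 5. As fitted they were 14.7%, 21.2%, 13.4%, 54.5% and 42.5%, and with the block 20.8%, 31.4%, 19.1%, 60.9% and 49.1%. A member count at or below such a share is no result about the members. With the block and without library 2 the count of members was 5, 3, 1, 3, 4, 4 and 1, and for *Lrig1* 3 without library 1 and 2 without library 3. With the block and without library 2, 2697, 4439, 2352, 9391, 6993, 6754 and 749 of all genes were called in either direction. Without library 1 the block moved satellite cells from 5 to 8 and fibroblasts against airway basal cells from 1 to 2. The mean share of airway basal cells with *Fos* was 20.9%, 15.9 to 23.8% with 1 library left out, 12.2% thinned to 2000 UMIs and 37.4% unthinned. The 51 member and class pairs past 2-fold between libraries became 49 to 54 under other cell filters and gates, and 44 with the 10 CPM filter on libraries 1 and 3, which was added after seeing the data. Endothelial cells and macrophages are limited by their cell numbers. The cause of these moves was not tested, and alternatives were chosen with earlier results known.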
